A study of Macaca mulatta with 8 samples.

Results

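Histones, HMG proteins and the chaperones that carry histones were followed in mature eggs of the rhesus macaque. The members were the probe sets of an expression array whose platform annotation gives 1 gene symbol beginning with H1-, H2A, H2B, H3-, H3C, H4C, HMGA, HMGB, HMGN, NAP1L, NPM, ASF1 or CHAF1. This rule took 116 of the 52766 probe sets that are not controls, and these 116 stand for 68 of the 14132 genes so named on the array. The rule uses no measured value.

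Oocytes matured in culture (in vitro, 4 arrays) were set against oocytes matured in the animal (in vivo, 4 arrays). All 8 arrays carried RNA of oocytes at metaphase II, where an egg arrests until a sperm enters, and each array held a pool of 4 oocytes whose RNA went through 2 rounds of amplification. The labels name no genotype, treatment, animal age or culture medium for either group. Arrays of a group are described as biological replicates, but no donor animals are named, so every p-value measures only the spread between pools.

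DNA in the nucleus is wound around octamers of the core histones H2A, H2B, H3 and H4, and the linker histone H1 binds where it enters and leaves. Most core and linker histones come from clustered genes that are read during DNA replication, and their mRNAs usually end in a stem-loop without a poly(A) tail. The replication-independent variants, such as H2A.Z and the H3 variant encoded by H3-3B, are made throughout the cell cycle from polyadenylated mRNAs. HMG proteins bind DNA or nucleosomes and alter how tightly chromatin is packed. Chaperones escort histones: ASF1 proteins carry H3 with H4, the CHAF1 proteins are subunits of chromatin assembly factor 1, which deposits them behind replication forks, and NAP1-like proteins and nucleoplasmins bind H2A with H2B. An egg stores such products because, after fertilization, sperm protamines are replaced by maternal histones.

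The values are MAS5 signals, a scaled brightness of each probe set on a linear scale, and each array had been brought to about the same mean, so a signal is a level relative to the other transcripts of its pool. In bulk RNA of this kind, fewer cells with a transcript and less of it per cell cannot be told apart. An array's background was taken as the 95th percentile of 59 control probe sets that had no target added, and it lay between 19.6 and 23.8 on the in vitro arrays and between 15.7 and 27.0 on the in vivo arrays. Between 53.8% and 60.9% of all probe sets on an in vitro array lay above it, and between 49.9% and 59.9% on an in vivo array. Of 12 oocyte marker genes named on the array, 11 had a probe set above background on all 8 arrays. Of 12 named granulosa and cumulus markers, 8 did, with summed signals of 40453 to 55898 in vitro and 48898 to 51553 in vivo, while the defining markers CYP11A1, FOXL2, FSHR and LHCGR were not analysed here. None of 4 named blood markers did, with summed signals of 94.8 to 147.5 in vitro and 146.9 to 258.4 in vivo. None of the marker probe sets of these 3 lists passed the adjusted limma test, and 1 oocyte, 2 granulosa or cumulus and 0 blood probe sets had an unadjusted p under 0.05. The part of other cells in the results below was not tested.

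The share of members above background differed between the classes. All 8 probe sets of the replication-independent variants H2AJ, H2AZ1, H2AZ2 and H3-3B were above background on all 8 arrays. So were 17 of 20 chaperone probe sets and 14 of 24 HMG probe sets. The replication-dependent histones had 12 of 52 probe sets above background on every array (23.1%), 31 on some arrays and 9 on none. Among the histones classed here as testis forms the count was 2 of 12, both of H1-9. Taking all members together, 53 of 116 (45.7%) were above background everywhere, beside 34.1% of all probe sets. No member was above background on all 4 arrays of a group and on none of the other. How many of all probe sets had such a split was not counted, so this is no trait of the members. Some members came near it: an H1-2 probe set was above background on 3 in vitro and 0 in vivo arrays, and an HMGB2 probe set on 0 and 3.

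**Figure D1:**
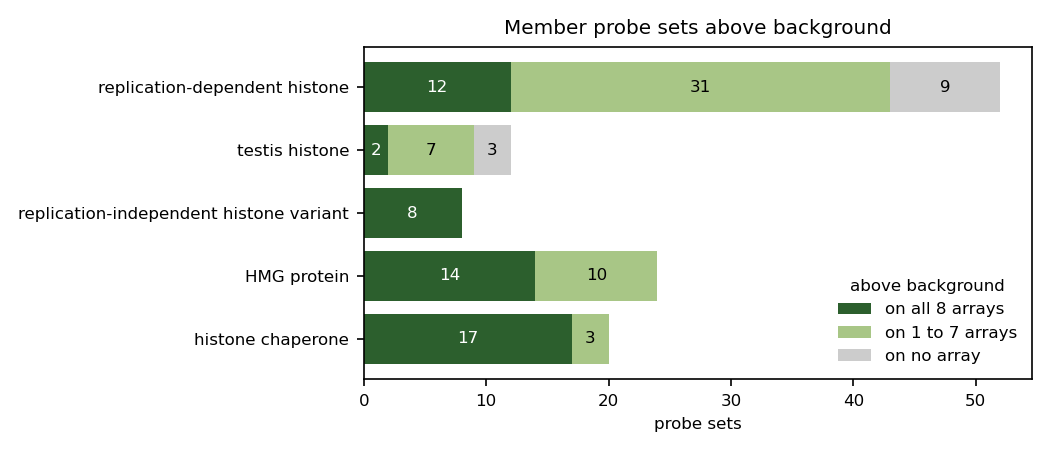
Member probe sets by class (rows) and number of probe sets (x axis), with the parts of each bar showing probe sets above background on all 8 arrays, on 1 to 7 arrays and on no array. The 8 variant probe sets are all in the first part, against 12 of 52 for replication-dependent histones.

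The replication-dependent genes with a probe set above background throughout were H1-1, H1-2, H1-3, H2AC12, H2AC6, H2BC11, H3C1, H4C11, H4C5 and H4C8, which is 10 of 36 genes. By protein family, 1 of 17 H2B probe sets, 7 of 26 H2A, 5 of 14 H1, 4 of 8 H4 and 5 of 7 H3 probe sets were above background everywhere. Of the H3 probe sets, 4 belong to the variant gene H3-3B. The order of protein-coding genes was taken from the RefSeq annotation of the T2T-MMU8v2.0 assembly. There 29 of the 36 replication-dependent genes and 4 of 7 testis histone genes lay next to another member. This was so for 0 of 4 variant genes, 0 of 10 HMG genes and 0 of 10 chaperone genes. Histone genes that are not members were not counted as neighbours, such as H4C16 beside the variant gene H2AJ and H2BC12 beside H2AC12. These counts therefore depend on which genes the array names. Coding sequences of clustered histone genes are much alike, so signal assigned to one may include others.

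The comparison asked whether maturation in culture left oocytes with other amounts of these transcripts. Probe sets above the median of the mean log2 value were fitted with limma on log2(signal + 8.2), and 68 member probe sets of 41 genes met that filter. None of the 68 passed a Benjamini-Hochberg adjusted p of 0.05, beside 38 of all 26383 tested probe sets (0.144%), and the smallest adjusted p of a member was 0.343. At an unadjusted limma p under 0.05 there were 10 members, or 14.7%, beside 10.2% of all tested probe sets. Of these, 8 were higher in vitro (11.8%, beside 4.7% of all) and 2 were lower (2.94%, beside 5.53%). Probe sets, not genes, are counted here. HMGN4 had more than 1 of the higher ones, and ASF1A had a probe set in each direction. CHAF1A was among the higher ones, although its other 3 tested probe sets had values below 0. The count of 10 became 5 without in vitro array 1, 17 without in vivo array 1 and 4 with median centring. On the scale of the fit, log2(signal + 8.2), no tested member differed by as much as 2-fold, beside 2.95% of all, although the mean signals of H4C8 were 2.14-fold apart.

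The median log2 fold change of the tested members, in vitro over in vivo, was 0.04, beside 0.01 for all tested probe sets. The members' median ran from -0.05 without in vivo array 3 to 0.14 without in vivo array 4. It was also below 0 without in vitro array 2 (-0.017), without in vivo array 1 (-0.0011) and with median centring (-0.016). With no filter, which takes in all 116 member probe sets, it was -0.026. Tested members ranged from -0.89 for H4C8 to 0.99 for NAP1L3, with 39 positive and 29 negative values. The signals of the 4 in vitro arrays and the 4 in vivo arrays did not overlap at 8 members (11.8%), beside 6.28% of all tested probe sets. In vitro signals were the higher ones at 7 of these (10.3%, beside 3.17%) and the lower ones at 1 (1.47%, beside 3.11%). The 7 were probe sets of ASF1B, ASF1A, HMGN3, HMGN4, HMGB3, H4C11 and H3-3B, and the 1 was HMGA1. Leaving out an array cannot lower such a count. With an array left out the 8 became between 10 and 14, the 14 (20.6%, beside 11.1% of all) without in vivo array 1. The share of all tested probe sets then ran from 8.75% to 11.8%. The difference between members and background in these shares was not tested.

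**Figure D2:**
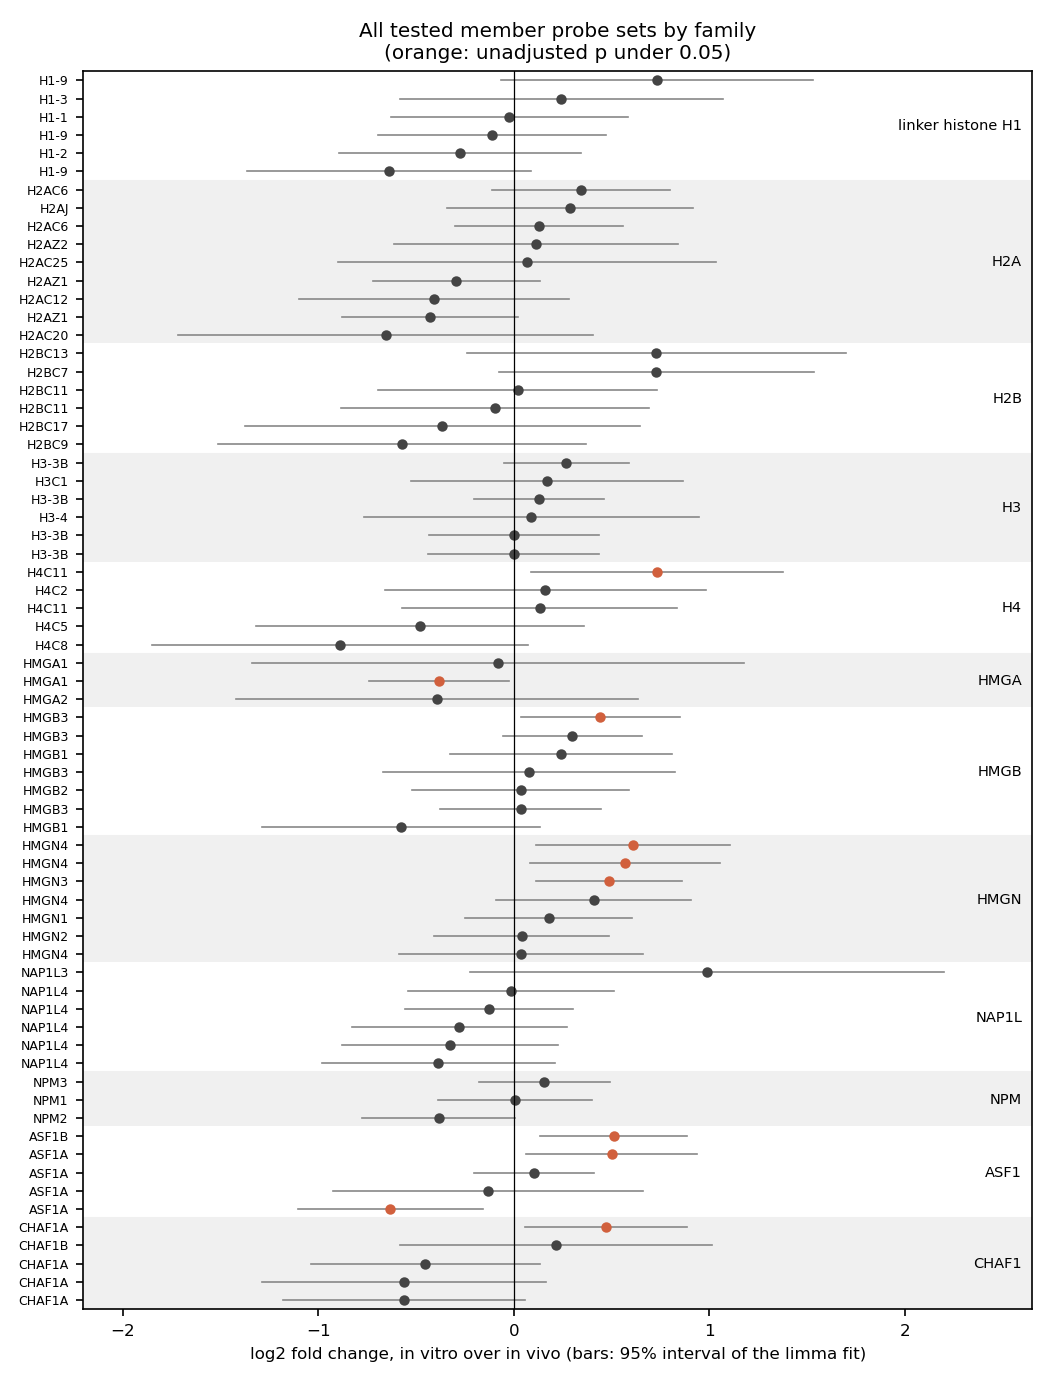
Log2 fold change, in vitro over in vivo, of the 68 tested member probe sets (x axis, points) with the 95% interval of the limma fit (bars), grouped by family down the page and labelled by gene. Orange points are the 10 with unadjusted p under 0.05, and all 7 HMGN points (6 with quantile normalization, 5 with median centring) and none of the 3 HMGA points lie to the right of 0. Of the 7 HMGN points, 4 are of HMGN4. Untested probe sets, among them those of HMGN5, are not shown.

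Among linker histones the 6 tested probe sets had log2 fold changes from -0.64 to 0.73, with 2 above 0 and 4 below. H1-1 signals were 1172.5, 1140.6, 1800.8 and 1236 in vitro, against 1486.3, 1602.9, 673.4 and 1965.9 in vivo. The in vivo arrays enclose the in vitro ones, and the log2 fold change of -0.02 had a 95% interval from -0.63 to 0.58. H1-3 had 445.3, 964.9, 1029.2 and 677.7 in vitro and 684.9, 822.7, 242.4 and 1100.4 in vivo, with in vivo array 3 the lowest as for H1-1. H1-9, listed as a pseudogene in RefSeq and known as a testis linker histone in mouse, had 3 tested probe sets that disagreed. The one of smallest p had 32.3, 48.3, 50.1 and 45.9 in vitro, against 11.4, 33.7, 36.2 and 17.8 in vivo, none above 50.1 (log2 fold change 0.73 ± 0.37 SE, limma adjusted p = 0.528). Its others had log2 fold changes of -0.64 and -0.11. The oocyte linker histone gene H1-8, and H1-10, H2AX, H3-3A and NAP1L1, were not analysed here.

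In the H2A family the variants H2AZ1 and H2AZ2 differ little in sequence and both mark promoters. H2AZ1 had 1600.4, 1552.8, 1878.8 and 1188.7 in vitro and 2416.9, 1491.1, 1881.3 and 2701.1 in vivo. In vivo arrays 1 and 4 stood above all in vitro arrays, array 3 was level with the highest of them and array 2 lay among them, for a log2 fold change of -0.43 ± 0.21 SE (limma adjusted p = 0.511). Its second probe set gave -0.29, with 970.8, 911.3, 938 and 836.9 in vitro against 1457.1, 788, 1281.2 and 1073.7 in vivo. H2AZ2 had 220.2, 237, 186.2 and 202 in vitro, against 303.3, 102.9, 351.9 and 125.8 in vivo. The 4 culture pools lay close together between the in vivo values, and the fold change of 0.11 on the log2 scale had an interval from -0.61 to 0.84, and it ran from -0.17 without in vivo array 2 to 0.39 without in vivo array 3. H2AJ, another replication-independent H2A, had a log2 fold change of 0.29, and H2AC6, a clustered H2A gene, had 0.34 and 0.13 at its tested probe sets. None of the 6 tested H2B probe sets had an unadjusted p under 0.05, and their log2 fold changes ran from -0.57 to 0.73.

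H3-3B encodes a replication-independent H3 that can be deposited outside S phase. Its probe set of smallest p had 2920.3, 3438.8, 2790.1 and 2943.2 in vitro, against 2448.7, 2658, 2512.4 and 2381.4 in vivo. Every in vitro signal was above every in vivo signal, yet the log2 fold change was 0.27 ± 0.15 SE (limma adjusted p = 0.563). The other 3 probe sets gave 0.13, 0.00 and 0.00. One of those had 14763.5, 16144.5, 14598.5 and 12691.8 in vitro and 11103.5, 14785.8, 11776 and 22869.1 in vivo, so in vivo array 4 alone stood above every in vitro array there. The clustered gene H3C1 had a log2 fold change of 0.17.

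For H4, all clustered genes encode the same protein. H4C11 had 56.6, 59.6, 80.2 and 73 in vitro and 46, 24.8, 48 and 32.8 in vivo at one probe set, with no overlap. Its log2 fold change of 0.73 ± 0.30 SE did not pass (limma adjusted p = 0.421), and the other H4C11 probe set gave 0.13. H4C8 went the other way, with 158.8, 137.7, 95 and 48.9 in vitro, against 455.1, 90.3, 275 and 122.3 in vivo. Its in vivo signals spread over a wider range and overlapped the in vitro ones, so that -0.89 ± 0.45 SE had a limma adjusted p of 0.525. The value was -0.49 without in vivo array 1, -0.58 without in vitro array 4 and -1.24 without in vivo array 2. H4C5 had 77.2, 83.8, 107.2 and 54.5 in vitro, against 305.2, 83.9, 69.9 and 86.8 in vivo, so in vivo array 1 stood apart from the other 7. Its log2 fold change was -0.48, and that of H4C2 was 0.16.

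**Figure D3:**
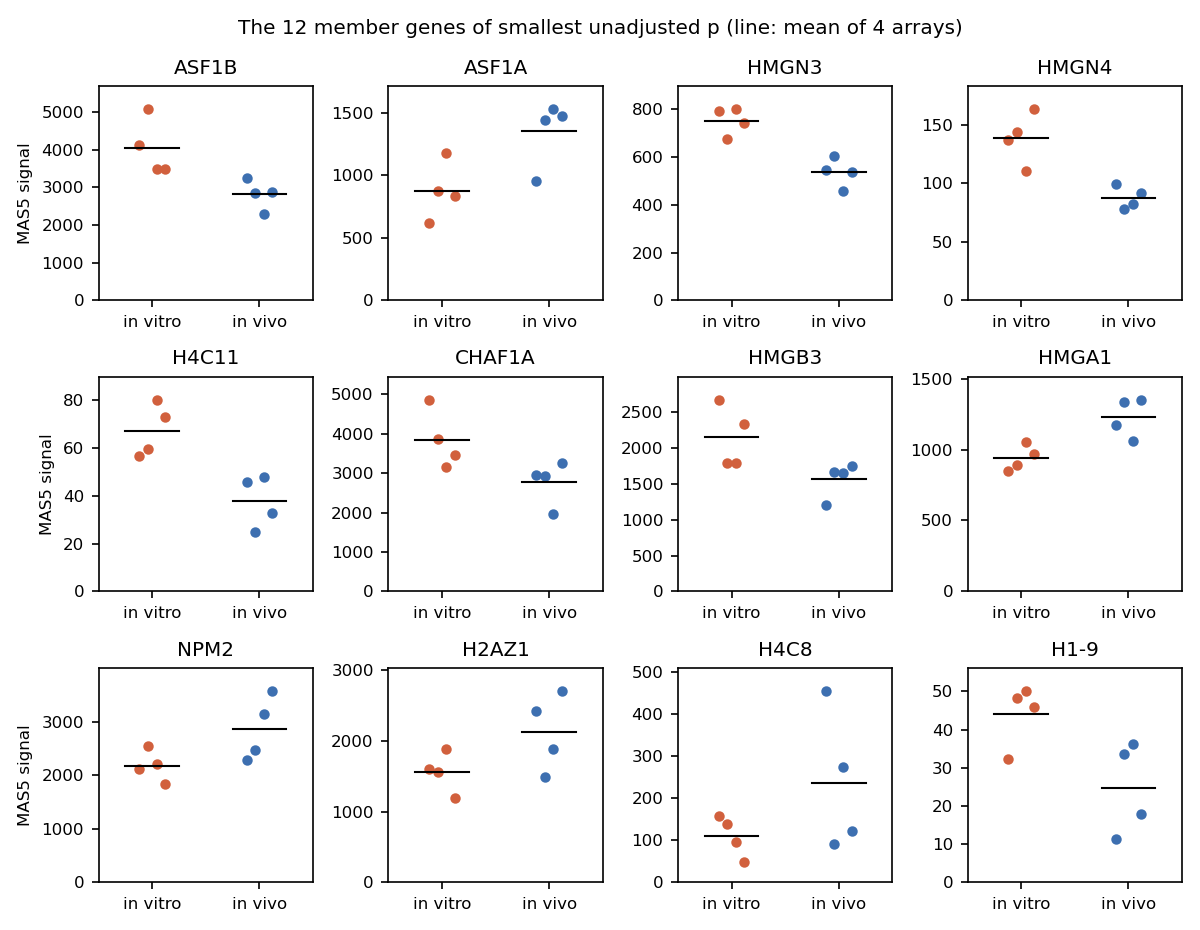
MAS5 signal (y axis, linear, from 0) on each in vitro and in vivo array for the 12 member genes of smallest unadjusted p, 1 probe set each, with the mean of 4 arrays as a line. The 2 groups do not overlap for ASF1B, HMGN3, HMGN4, H4C11, HMGB3 and HMGA1, and they overlap for ASF1A, CHAF1A, NPM2, H2AZ1, H4C8 and H1-9.

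HMGN proteins bind the nucleosome core and loosen chromatin fibres. All 7 of their tested probe sets had positive log2 fold changes, with a median of 0.41, while 6 were positive with quantile normalization and 5 with median centring. Of these 7, 4 were probe sets of HMGN4. The probe sets of HMGN5 did not meet the filter and, fitted without it, gave -0.80 and -0.37. At 3 of the 7 the unadjusted limma p was under 0.05. HMGN3 had 793.2, 673.4, 799.9 and 740.4 in vitro, against 545, 603, 457.7 and 537.6 in vivo. The lowest in vitro array was above the highest in vivo array, and the means were 752 ± 58.6 and 536 ± 59.7 (SD, n = 4 each). The log2 fold change of 0.49 ± 0.17 SE had a 95% interval from 0.11 to 0.86 and a limma adjusted p of 0.361.

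HMGN4, an intronless relative of HMGN2, was measured by 4 tested probe sets. The one of smallest p had 136.9, 144.3, 110.7 and 163.6 in vitro and 99.8, 77.7, 82 and 91.4 in vivo, without overlap (log2 fold change 0.61 ± 0.23 SE, limma adjusted p = 0.392). A second gave 0.57 (limma adjusted p = 0.411), with 1825.8, 1659.1, 1398.3 and 1982 in vitro and 1186.3, 1173.6, 1680.9 and 733.4 in vivo. There in vivo array 3 reached into the in vitro range. The remaining probe sets gave 0.41 and 0.04. HMGN1 had 490.8, 600.3, 496.1 and 576.5 in vitro, against 634.3, 478.2, 386.7 and 433.1 in vivo, so in vivo array 1 was the highest and the other in vivo arrays were the lowest. Its log2 fold change was 0.18 (95% interval -0.25 to 0.61), and it was 0.32 without in vivo array 1 and 0.082 without in vivo array 3. HMGN2 gave 0.04 (95% interval -0.41 to 0.49; -0.094 without in vivo array 4 and 0.18 without in vitro array 1), and its sign turned under other scalings, to -0.022 with quantile normalization and -0.013 with median centring. Retrocopies of HMGN and HMGB genes are common in primate genomes, so signal may be shared between copies.

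HMGB proteins bend DNA. HMGB3 had 2673.7, 1790.2, 1797.1 and 2345 in vitro, against 1203.1, 1672.2, 1660 and 1756.9 in vivo. These groups just missed touching, since the lowest in vitro signal was 1790.2 and the highest in vivo signal 1756.9. The log2 fold change was 0.44 ± 0.19 SE (limma adjusted p = 0.444), and the other 3 HMGB3 probe sets gave 0.30, 0.08 and 0.04. HMGB2 had 3241.9, 2971, 4156.6 and 3756.8 in vitro, against 2362.4, 3148.9, 2799.3 and 6510.4 in vivo, where array 4 was the highest of all. Its log2 fold change of 0.04 had an interval from -0.52 to 0.59, ran from -0.14 without in vivo array 1 to 0.35 without in vivo array 4, and became -0.016 with median centring. HMGB1 was split between its 2 tested probe sets. At one it had 88.8, 51.3, 119.8 and 105.8 in vitro, against 212.7, 91, 180.6 and 92.2 in vivo, with a log2 fold change of -0.58 ± 0.33 SE (limma adjusted p = 0.585), which became -0.35 without in vitro array 2 and -0.37 without in vivo array 1. At the other it had 254.4, 315.7, 361.7 and 320.2 in vitro, against 396.2, 222.1, 160.3 and 329 in vivo, for 0.24 ± 0.27 SE. The groups overlapped at both, and in vivo array 3 was high at the first and the lowest of all at the second.

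HMGA proteins bind AT-rich DNA. HMGA1 was the single tested member whose in vitro signals all lay below the in vivo ones, with 850.9, 888.1, 1050.3 and 968.6 in vitro, against 1171.8, 1335.2, 1061.1 and 1349.1 in vivo. The means were 939 ± 88.7 and 1229 ± 138 (SD, n = 4 each). The log2 fold change of -0.38 ± 0.17 SE had a limma adjusted p of 0.456. A second HMGA1 probe set, with 9.8 to 70.8 in vitro and 4.1 to 53 in vivo, gave -0.08, and HMGA2 gave -0.39 from signals of 8.4 to 43.8 in vitro and 18.7 to 90.8 in vivo, a value that became -0.071 without in vitro array 1, -0.62 without in vitro array 4, -0.61 without in vivo array 3 and 0.013 without in vivo array 1. The HMGA2 probe sets that did not meet the filter gave 0.44 and -0.07 when fitted without it.

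ASF1B encodes the ASF1 paralog tied to proliferating cells, and its probe set had the smallest p of the 68 tested members. Its signals were 4129.8, 5084, 3479 and 3478.1 in vitro, against 3255.4, 2858.7, 2297.7 and 2874.1 in vivo. All in vitro pools were above all in vivo pools. The means were 4043 ± 759 and 2821 ± 394 (SD, n = 4 each), and the log2 fold change of 0.51 ± 0.18 SE had a 95% interval from 0.14 to 0.89 (limma adjusted p = 0.343).

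The paralog ASF1A was measured by 4 probe sets that pointed both ways. At one, the signals were 619.2, 873.8, 1178.1 and 837 in vitro, against 951.9, 1446.5, 1531.1 and 1478.2 in vivo (log2 fold change -0.63 ± 0.22 SE, limma adjusted p = 0.348). In vivo arrays 2, 3 and 4 were above all in vitro arrays there, and in vivo array 1 was not. At another, 1581.4, 1348.4, 1350.7 and 1299 in vitro stood above 1289.5, 1038.7, 1040.9 and 661.2 in vivo (0.50 ± 0.20 SE, limma adjusted p = 0.417). The remaining probe sets gave 0.10, with means of 7745 ± 277 in vitro and 7246 ± 861 in vivo (SD, n = 4 each), and -0.13.

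CHAF1A and CHAF1B encode the large and middle subunits of chromatin assembly factor 1. One CHAF1A probe set had 4855, 3874.4, 3148.2 and 3461.4 in vitro, against 2949.8, 2930, 1969.5 and 3254.8 in vivo (log2 fold change 0.47 ± 0.19 SE, limma adjusted p = 0.421). The lowest in vivo value there came from array 3. At the other 3 probe sets, with log2 fold changes of -0.56, -0.56 and -0.45, in vivo array 3 was instead the highest of all 8, at 837.6, 2502.1 and 3137. CHAF1B, whose signals were 24.8 to 54.3 in vitro and 16.5 to 48.7 in vivo, had a log2 fold change of 0.22, which was 0.40 without in vivo array 3, 0.37 without in vitro array 2, 0.063 without in vitro array 4 and -0.0011 without in vivo array 1.

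**Figure D4:**
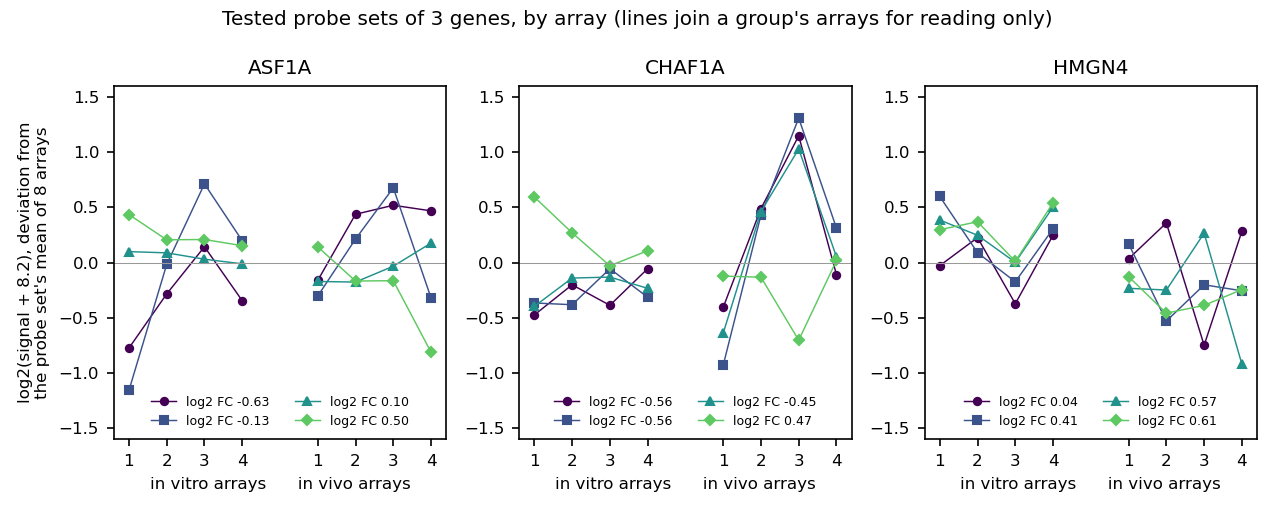
The tested probe sets of ASF1A, CHAF1A and HMGN4 on each in vitro and in vivo array (x axis), as the deviation of log2(signal + 8.2) from the probe set's own mean (y axis). On in vivo array 3, 3 CHAF1A probe sets are high and the one with log2 fold change 0.47 is low.

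Several tested probe sets were available for 13 member genes. All probe sets of 7 genes had 1 sign, those of 6 had both signs, and the range was over 1 on the log2 scale for H1-9 (1.37), ASF1A (1.13) and CHAF1A (1.03). Probe sets of 1 gene share their pools and are not independent of each other.

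Nucleoplasmins are acidic chaperones, and NPM2 is the egg form, needed in mouse for the organisation of the egg nucleus and for early development. NPM2 had 2107.2, 2537.5, 2206.2 and 1834.2 in vitro, against 2279.5, 2462, 3142.4 and 3571.1 in vivo. In vivo arrays 3 and 4 were above all in vitro arrays and arrays 1 and 2 were among them (2171 ± 290 against 2864 ± 600, SD, n = 4 each). The log2 fold change of -0.38 ± 0.18 SE had a 95% interval from -0.78 to 0.01 and a limma adjusted p of 0.498. NPM1, the nucleolar member, had 10536.4, 12375.7, 11261.7 and 9656.9 in vitro, against 9346.9, 10924.3, 8677.8 and 15690.8 in vivo. Again array 4 was the highest in vivo pool. Its log2 fold change was 0.01 with an interval from -0.39 to 0.40. It ran from -0.10 without in vivo array 3 to 0.18 without in vivo array 4, and it became -0.012 with quantile normalization and -0.046 with median centring. NPM3 had 4025.8, 4935.8, 4391.4 and 4564.9 in vitro, against 4485.2, 4264.8, 3264.2 and 4130.9 in vivo, with overlap and a log2 fold change of 0.16 (95% interval -0.18 to 0.49), which became 0.058 without in vivo array 3.

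The 5 tested probe sets of NAP1L4, a chaperone of H2A with H2B, all had negative log2 fold changes, from -0.39 to -0.01 (also with quantile normalization and median centring), and the smallest limma adjusted p among them was 0.670. NAP1L3 had the highest log2 fold change of the tested members, 0.99 ± 0.57 SE, from 30.3, 55.3, 46.6 and 94.1 in vitro, against 52, 8.7, 68.3 and 3.2 in vivo. In vivo arrays 2 and 4 were below background and arrays 1 and 3 were within the in vitro range (limma adjusted p = 0.582).

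The 48 member probe sets that did not meet the filter had signals between 0.4 and 99.3, and 27 genes were represented by such probe sets alone. Most were clustered H2A, H2B and H4 genes or testis histones. At 3 of the 48 (6.25%) the groups did not overlap, beside 2.71% of all 26383 untested probe sets, each from signals close to background. A dim H1-2 probe set had 25, 25.4, 30.7 and 16 in vitro, against 0.4, 1.6, 2.4 and 14.3 in vivo, and it was above background on 3 in vitro arrays and on 0 in vivo arrays. Fitted with no filter, it had a log2 fold change of 1.43 and a limma adjusted p of 0.383, and the log2 fold change at the tested H1-2 probe set was -0.27. The others, of H2AC4 and H2AC7, were lower in vitro, and neither was above background on any in vitro array. H2AC4 had 2.6, 6.5, 7.1 and 4 in vitro, against 10.9, 23.3, 38.6 and 7.2 in vivo.

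The spread within groups was compared next. The SD of the log2 values was smaller in vitro at 49 of 68 members (72.1%), beside 66.3% of all tested probe sets. The members' median SD was 0.26 in vitro and 0.41 in vivo, beside 0.32 and 0.43 for all tested probe sets. Among members above background on all 8 arrays the share was 75.5%, beside 70.7% of all such probe sets. The SD was smaller in vitro at 7 of 8 variant probe sets, 6 of 6 H1, 3 of 3 nucleoplasmin, 5 of 5 CHAF1 and 3 of 3 HMGA probe sets. It was so at 5 of 6 NAP1L, 4 of 5 H4, 5 of 7 HMGB and 5 of 7 HMGN probe sets. The counts were 5 of 9 for H2A, 3 of 6 for H2B, 3 of 6 for H3 and 2 of 5 for ASF1. Replication-dependent histones had a median SD of 0.51 in vitro and 0.41 in vivo, although the SD was smaller in vitro at 11 of their 20 probe sets (55%).

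The array with the highest signal differed between members. Among the 53 members above background on all arrays, in vivo array 4 held the highest signal for 15 (28.3%), beside 18.5% of all such probe sets, while in vivo arrays 1 and 3 held it for 9 each, beside 15.3% and 19.5% of all. In vivo array 3 held the lowest signal for 13 (24.5%), beside 20.04% of all. The ratio of the control probe sets for the 3' and 5' ends of elongation factor 1 alpha was 12.8 on in vivo array 4, while it ran from 3.59 to 4.91 in vitro and from 2.70 to 7.70 on the other in vivo arrays. The spiked-in control Cre had a signal of 22324 on in vivo array 4. Its signal ran from 7647 to 12535 in vitro and from 7428 to 13020 on the other in vivo arrays. The part of either control in these differences was not tested.

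**Figure D5:**
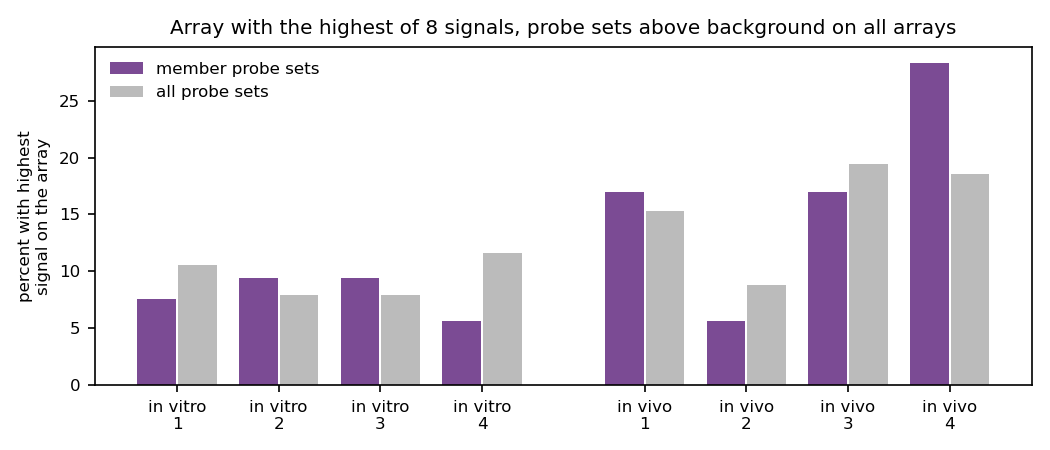
Percent of probe sets (y axis) whose highest of 8 signals fell on each in vitro or in vivo array (x axis), for the 53 members and for all probe sets above background on all arrays. In vivo array 4 holds 28.3% of members, beside 18.5% of all.

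Of 42 other genes of histone mRNA processing, histone deposition and related variants, 34 were tested with 49 probe sets. None passed the adjusted test, 6 (12.2%, beside 10.2% of all tested probe sets) had an unadjusted limma p under 0.05, and the median log2 fold change was 0.10, with 30 positive and 19 negative values. Signals did not overlap at 4 of the 49 probe sets (8.16%, beside 6.28%). ATRX, which helps to place H3.3 in repeated DNA, had 56.1, 73.6, 105.9 and 80.9 in vitro, against 16.7, 43.8, 31.6 and 37 in vivo (log2 fold change 1.13 ± 0.33 SE, limma adjusted p = 0.259). Its other 3 probe sets gave 0.35, -0.36 and -0.31. Both FACT subunits, which move H2A with H2B aside for polymerases, had positive values. SUPT16H had 402.9, 359.6, 570.8 and 408.1 in vitro, against 349.7, 323.8, 222.4 and 199 in vivo, without overlap (0.67 ± 0.24 SE, limma adjusted p = 0.348). SSRP1 gave 0.53 and 0.51 at its probe sets, with a smallest limma adjusted p of 0.388. Values below 0 were found for SNRPD3, a core protein of spliceosomal particles and of the particle that trims histone mRNA ends, at -0.51 (limma adjusted p = 0.362), and SUPT5H, an elongation factor, at -0.57 (limma adjusted p = 0.410).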

How the data were processed

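Oocyte RNA was amplified, labelled with biotin and read on Affymetrix arrays, per the labels' protocols. The authors deposited an intensity for each probe set, made with MAS5 according to their processing notes, where no version is named. Of 52865 probe sets, 99 controls were left out. The pseudocount 8.2 is the 25th percentile of all signals, and fold changes with it come out too small where signals are low. Tests covered probe sets whose mean log2 value exceeded its 50th percentile, with limma 3.58.1 in R 4.3.3 (lmFit, then eBayes with an intensity trend) and adjustment over all 26383. The fit was tested on simulated data. Entrez identifiers of 114 of the 116 members were found in RefSeq, with 0 symbols changed. No sequences or coordinates are given.

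Genes named are the 12 with the smallest unadjusted p, genes fixed for their role and genes whose probe sets differ by over 1 on the log2 scale. Up to 5 of the other genes of histone mRNA processing, histone deposition and related variants are also named. The names H1-1, H1-3, H2AJ, H2AC6, H3C1, H4C2, H4C5, NAP1L3, H2AC4, H2AC7, H1-2 and HMGN5 were added after their values were seen. Members and lists were chosen with earlier results of these data known. Alternatives were pseudocounts of 1 and 27.7, omitting the filter or raising it to the 75th percentile, median centring or quantile normalization, no intensity trend, array weights, a replicate block and each array left out. The control ratio as covariate and the non-overlap counts with an array left out were added after seeing the data.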

Additional observations from a re-analysis of the deposited data

Results flagged for a closer look

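Within a group of 4 arrays, 1 value stood far from the other 3 in 5 of 136 groups examined (3.68%), and chance gives about 1 in 20 groups. At the ASF1A probe set of log2 fold change -0.63, in vivo array 1 was low at 951.9, against 1446.5 to 1531.1 on the other in vivo arrays. At the HMGB3 probe set of log2 fold change 0.44, the same array was low at 1203.1, against 1660 to 1756.9. At a NAP1L4 probe set, in vitro array 2 was high at 82.8, against 52.4 to 54.8 on the other in vitro arrays. The remaining ones were HMGA1, low at 4.1 on in vivo array 1 at its dimmer probe set, and H4C5, high at 305.2 on the same array. In vivo array 1 held 4 of the 5. Outliers over all tested probe sets were not counted, so neither count is a trait of the members or of that array.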

How the results depend on the processing

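No member passed the adjusted limma test under any of the 18 alternatives. The same held for the other genes of histone mRNA processing, histone deposition and related variants, with the same 18 alternatives. Each named gene was followed only at its tested probe set of smallest p, so disagreement between probe sets of a gene is not counted here. Omitting or raising the filter, dropping the intensity trend and the replicate block leave a fold change as it was. Those alternatives could therefore not turn a sign. Over named genes and alternatives, 387 of 409 values kept their sign and side, none passed, and 22 in 6 genes changed sign. These were HMGB2 (-0.016 with median centring), HMGN2 (-0.022 with quantile normalization, -0.013 with median centring and -0.035 with the elongation factor ratio as covariate), NPM1 (-0.012 with quantile normalization and -0.046 with median centring) and H2AZ2 (-0.10 with the covariate), and, with an array left out, CHAF1B (-0.0011 to 0.40), H2AZ2 (-0.17 to 0.39), HMGA2 (-0.62 to 0.013), HMGB2 (-0.14 to 0.35), HMGN2 (-0.094 to 0.18) and NPM1 (-0.10 to 0.18). The 38 calls over all probe sets became 10 without an intensity trend, 88 with array weights, 292 with the covariate, and between 18 and 97 with an array left out (18, 21 and 21 without in vitro arrays 1, 2 and 3, 71 without in vivo array 1 and 97 without in vivo array 4). Members at unadjusted limma p under 0.05 were 4 with median centring, 5 without in vitro array 1 and 17 without in vivo array 1, and the cause was not tested. Non-overlapping members, whose count cannot fall when an array is left out, were between 10 and 14. The 14 came without in vivo array 1 (20.6%, beside 11.1% of all). Same-numbered arrays were not paired in their deviations (correlations -0.047 to 0.016); the replicate block gave 43 calls over all probe sets and 0 among members. The 4 arrays per group and signals near background limit what could be seen.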
